A study of Mus musculus with 6 samples.

Results

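The extracellular antagonists of bone morphogenetic proteins (BMPs) and activins were followed in whole tracheas of mouse embryos. The genes were chosen by symbol: Bmper, Grem1, Nog, Chrd, Chrdl1, Fst, Fstl1, Fstl3 and Twsg1. Of these 9 genes, 8 had a probe under that symbol on the array, out of 17850 gene symbols in all, and Fstl3 was not analysed here. A probe bright enough to test was found for 6 of them, among 10831 genes tested. RNA was measured on an Illumina bead array at stage E18.5 in 3 pools labelled control (Sox9+/+) and 3 pools labelled mutant (Sox9-/-, with Sox9 missing from the mesenchyme and no cartilage rings), all on the C57BL/6 background. Sox9 encodes a transcription factor that chondrocytes need in order to form. Each pool combined 3 tracheas, so each group held 9, and the embryos of all pools came from 7 pregnant females and were mixed at random. The driver that removed Sox9 from the mesenchyme is not given in the sources used here, and neither is the full genotype of the controls.

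BMPs and activins are secreted dimers that bring receptor kinases together on the cell surface, after which Smad proteins enter the nucleus and BMP signalling switches on genes such as the Id family. The antagonists work outside the cell. Noggin, chordin, the chordin-like protein Chrdl1 and gremlin bind BMPs, follistatin (Fst) binds activins most tightly, and Bmper and Twsg1 can restrain or aid BMP signalling depending on context. BMP signalling takes part in cartilage formation, and mice without Fstl1 have malformed tracheal cartilage.

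The promoters of Bmper and Grem1, both called lower in the pools labelled mutant, are shown to give the sequence context of these genes. RefSeq windows from 250 bases before to 50 after the gene start (assembly GRCm38.p6) were matched by symbol for 6 of 9 members, Bmper, Grem1, Chrd, Fstl1, Fstl3 and Twsg1, but not for Fst, Nog and Chrdl1. The Bmper window lies at chr9:23222826-23223125 on the + strand and the Grem1 window at chr2:113758599-113758898 on the - strand. Capitals mark motifs found on either strand among 5 that were searched: ACAAAG and ACAATG (cores that SOX proteins bind), GGCGCC (a Smad-bound GC element), GGGCGG (the SP1 GC box) and TATAAA (the TATA box).
Bmper: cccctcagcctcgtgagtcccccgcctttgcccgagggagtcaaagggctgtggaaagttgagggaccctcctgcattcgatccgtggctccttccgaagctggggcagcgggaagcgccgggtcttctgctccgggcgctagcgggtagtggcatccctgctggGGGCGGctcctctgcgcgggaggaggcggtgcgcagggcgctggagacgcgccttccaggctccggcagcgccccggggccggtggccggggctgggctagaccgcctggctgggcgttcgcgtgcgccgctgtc
Grem1: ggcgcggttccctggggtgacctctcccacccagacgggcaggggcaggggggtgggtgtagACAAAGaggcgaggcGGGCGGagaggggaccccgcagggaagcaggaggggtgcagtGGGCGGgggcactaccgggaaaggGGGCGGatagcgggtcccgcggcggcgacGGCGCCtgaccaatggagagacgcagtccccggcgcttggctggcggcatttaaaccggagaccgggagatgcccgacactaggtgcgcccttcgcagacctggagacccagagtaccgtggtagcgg
The Bmper window held a single match, GGGCGG at position -85 from the start, a motif present in 35.7% of 32851 promoter windows of the same length of 300 bases. The Grem1 window held ACAAAG at position -188 (18.7% of all windows), GGGCGG at positions -173, -131 and -107, and GGCGCC at position -78 (11.9% of all windows). No match overlapped another in these windows. ACAATG and TATAAA, present in 12.6% and 13.6% of all windows, were in neither. Both windows were rich in G and C, 72.7% for Bmper and 70.7% for Grem1, against a median of 52.7% over all windows. Of the promoters of tested members that were not called, those of Chrd and Fstl1 also held no ACAAAG or ACAATG, and that of Twsg1 held ACAAAG once.

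The array as a whole sets the frame for these values. Median raw signal was 183 to 198 on the control arrays and 205 to 211 on the mutant arrays, 14468 to 14726 probes were detected per array (detection p below 0.05), and the lowest raw signal that counted as detected was 166 to 190. The Sox9 probe read 148, 141 and 151 in the control pools, below detection, and 202, 185 and 196 in the mutant pools, just above it. With no detected value in the control pools, the probe entered the test through the mutant pools alone. Its fitted change is therefore no measured size, and its test adds no support. Set against the lowest detected signal of the control arrays, the mutant signal was at least 1.12-fold higher, on the background-corrected scale alone. A probe at the edge of detection says little about the label, although it was not lower in the pools labelled mutant, and whether the probe lies inside the deleted sequence is not given in the sources used here, so groups are named by their labels. The cartilage collagen gene Col2a1 was lower in the pools labelled mutant (log2 change -6.36, adjusted p = 5.5e-05). It was detected on 2 of 3 mutant arrays. Its mean log2 level in the mutant pools was 5.34, near the lowest detected level of those arrays (5.23 to 5.29). The fitted size of its change is therefore no measured size. The airway markers Nkx2-1, Krt5, Foxj1 and Scgb3a2 were detected on all 6 arrays. Thyroid markers (2 of 3 measured) summed to 325, 12437 and 2269 in control pools and to 285 to 712 in mutant pools, and skeletal muscle markers (3 of 4) ranged from 398 to 7059 and from 3308 to 12656. No gene of these lists passed limma's test (0 thyroid and 2 muscle genes at unadjusted p below 0.05), and their part in the results below was not tested. Pools were the replicates, so the adjusted p-values set the group difference against the spread between pools, not between single embryos. The number of pools limits the precision.

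Of the 6 measurable antagonists 5 were detected in both groups, and all 5 had a lower mean level in the pools labelled mutant after normalization. Of these 5, Bmper and Fst (2 genes) passed the test over all genes (limma on log2 values, Benjamini-Hochberg adjusted p below 0.05). Grem1 passed too, but it entered the test only through the control pools, in which it was detected, so its call adds nothing to that count. Over the whole array 3.36% of 10831 genes were called lower and 2.16% higher, 5.52% in either direction. In each of the 5 genes the 3 mutant values lay below the 3 control values, an arrangement that 16.1% of all tested genes showed, while 15.3% showed the opposite one. The median log2 change of the 5 was -0.47, against 0.01 over all tested genes. Because the pools hold whole tissue, fewer cells of a type and less RNA per cell cannot be told apart. On the raw scale, before normalization, only Bmper and Fst (2 of 5) were separated in this way, as were 3% of tested genes in the same direction, while 50.3% were separated upwards.

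**Figure D1:**
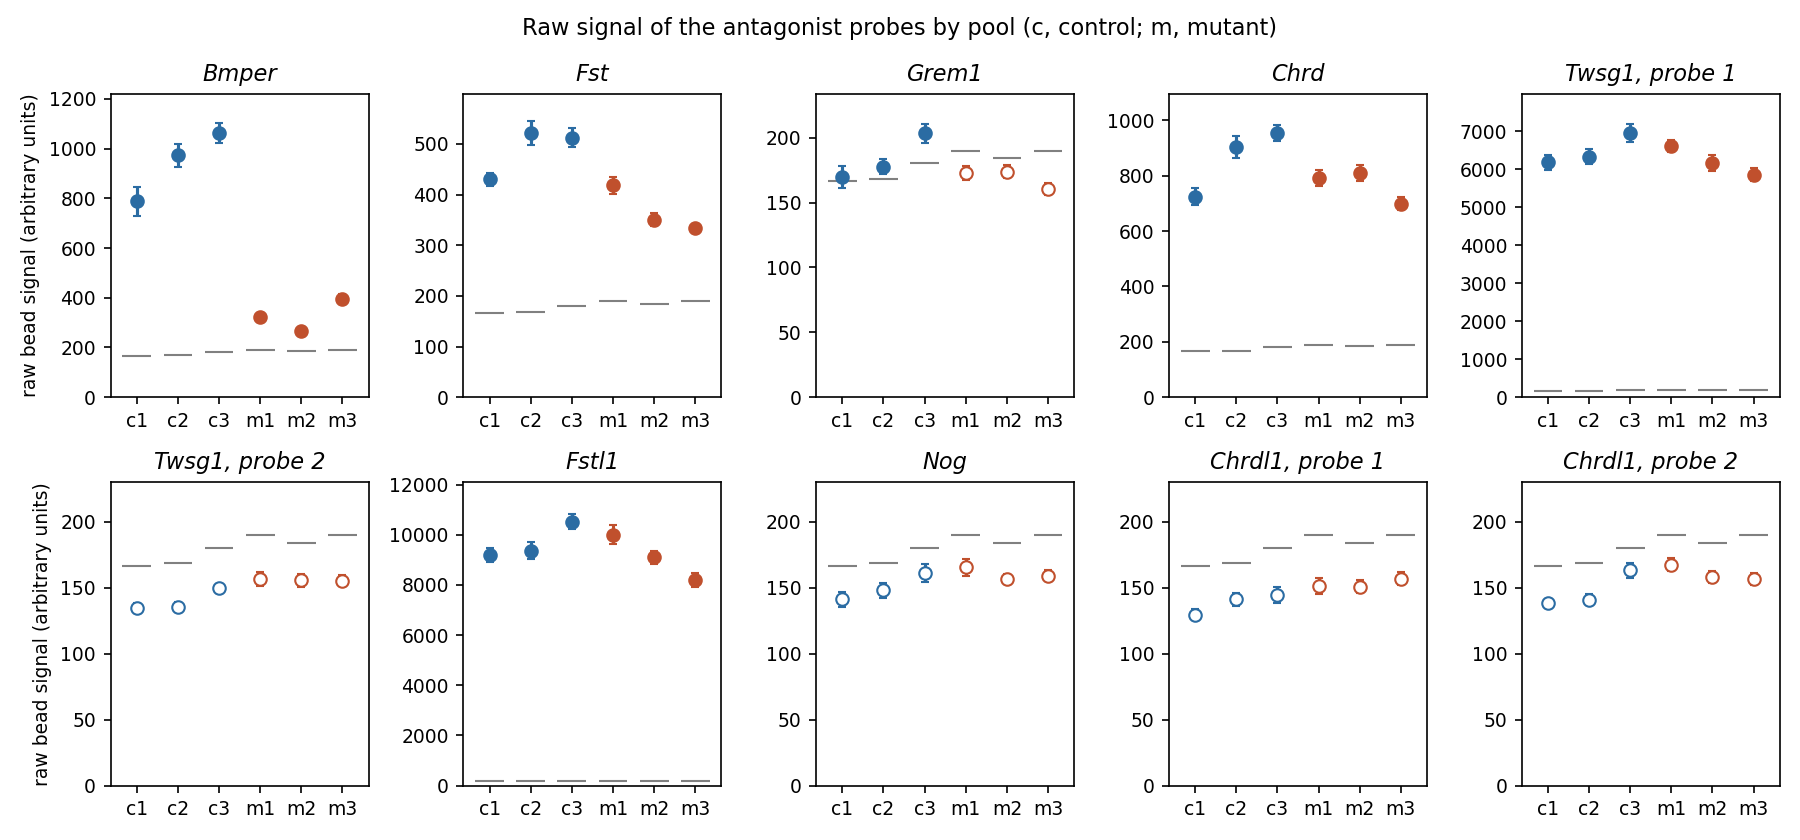
Raw bead signal (arbitrary units) of every antagonist probe in each pool, with blue for the control-labelled and red for the mutant-labelled pools and bars for the standard error over the beads of 1 array. Filled points were detected, open points were not, and grey ticks mark the lowest detected signal of each array; Bmper is separated widest, and Nog, Chrdl1 and a Twsg1 probe stay under the ticks throughout.

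Bmper, the vertebrate relative of fly crossveinless-2, had the largest change among the antagonists. Its raw signal was 789, 972 and 1062 in control pools 1, 2 and 3, against 321, 265 and 394 in mutant pools 1, 2 and 3. Every mutant value lay far under every control value, and all 6 were above the detection level. The standard error over the 23 to 41 beads behind each value was 3.67% to 7.38% of the signal, much smaller than the distance between the groups. On the log2 scale the level was 9.76 ± 0.20 for control and 7.30 ± 0.50 for mutant (SD, n = 3 each), a fall of 5.51-fold (log2 change -2.46, SE 0.25, 95% interval -3.06 to -1.87, adjusted p = 0.00794). It ranked 37 by p among all tested genes. The call held without each pool in turn (log2 change -2.72 to -2.22, adjusted p up to 0.0366). The authors' deposited table gives -2.46 with an adjusted p of 0.00969.

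Fst, which encodes follistatin, the high-affinity activin binder, fell about 2-fold. Raw signal was 430, 521 and 512 in control pools and 419, 350 and 335 in mutant pools. The groups did not overlap, although mutant pool 1 came close to control pool 1. Normalized levels were 8.59 ± 0.21 and 7.63 ± 0.26, a fall of 1.95-fold (log2 change -0.96, SE 0.17, 95% interval -1.35 to -0.57, adjusted p = 0.0285). Fst no longer passed without control pool 2 (adjusted p = 0.0838), control pool 3 (0.0809), mutant pool 2 (0.108) or mutant pool 3 (0.0765), while the change stayed between -1.10 and -0.84. Without background correction it was -0.63 and still called.

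Grem1, a BMP antagonist of the DAN family, was read just at the edge of detection. Raw signal was 169, 178 and 203 in the control pools, each above background (detection p 0.00501 to 0.0351), and 173, 174 and 161 in the mutant pools, none above background (detection p 0.137 to 0.675). The raw ranges overlapped and the normalized ones did not. Normalized levels were 5.65 ± 0.30 and 4.77 ± 0.20 (log2 change -0.88, SE 0.17, adjusted p = 0.0403), but with no detected value in the mutant pools only a bound can be given. Set against the lowest detected signal of the mutant arrays, Grem1 was at least 1.31-fold lower on the background-corrected scale. That bound holds for this scale alone. The call was lost without mutant pool 1, 2 or 3 (adjusted p 0.0755, 0.104 and 0.110), and without any 1 control pool the probe failed the detection filter and was not tested. Without background correction the change was -0.25, smaller than the bound, and was not called (adjusted p = 0.0706).

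**Figure D2:**
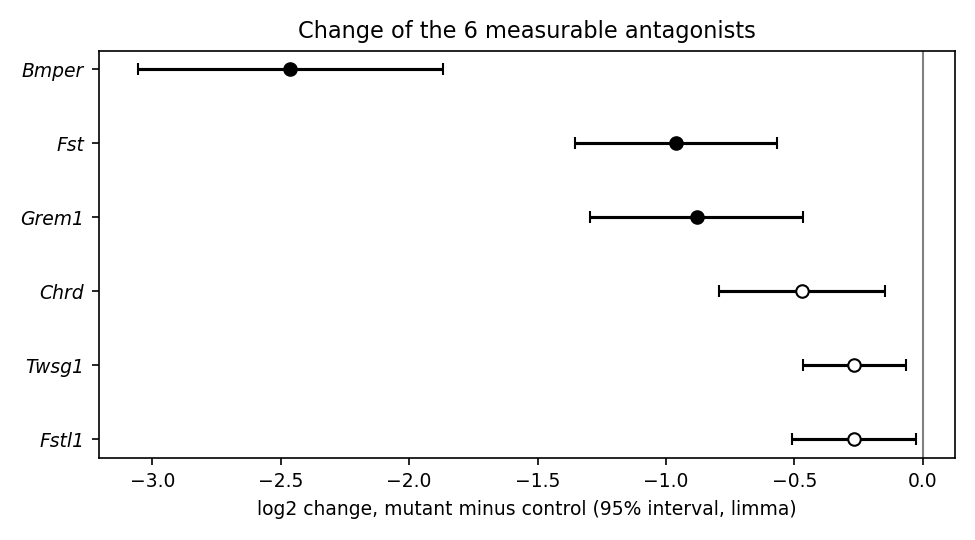
Log2 change of the 6 measurable antagonists (mutant minus control) with 95% intervals from limma, filled where the adjusted p over all genes was below 0.05. Bmper lies at -2.46, Fst at -0.96 and Grem1 at -0.88; for Grem1, undetected in the mutant pools, the fitted value is no measured size.

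Chrd, which encodes chordin, had a difference that did not pass. Raw signal was 724, 905 and 954 in control pools and 792, 811 and 698 in mutant pools. Control pool 1 lay below mutant pools 1 and 2 on this scale, and the groups separated after normalization, at 9.61 ± 0.21 and 9.14 ± 0.14. The log2 change was -0.47 (SE 0.14, 95% interval -0.79 to -0.15, adjusted p = 0.0948). Without control pool 1 it was -0.59 and passed (adjusted p = 0.0488).

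Twsg1, which encodes the chordin partner twisted gastrulation, and Fstl1, which encodes a follistatin-related glycoprotein, were bright probes with small differences. Twsg1 read 6180, 6330 and 6948 in control pools and 6608, 6156 and 5852 in mutant pools. Its raw groups overlapped, and its normalized levels were 12.73 ± 0.01 and 12.46 ± 0.08 (log2 change -0.27, SE 0.08, 95% interval -0.47 to -0.07, adjusted p = 0.114). Fstl1 read 9192, 9371 and 10525 in control pools and 10007, 9101 and 8193 in mutant pools. Its raw groups also overlapped, and its normalized levels were 13.30 ± 0.04 and 13.04 ± 0.15 (log2 change -0.27, SE 0.10, 95% interval -0.51 to -0.03, adjusted p = 0.164). Neither passed the test over all genes, and the intervals leave room for falls of up to 0.47 and 0.51 on the log2 scale.

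Nog, Chrdl1 and the other Twsg1 probe gave no measurable level. The Nog probe (noggin) read 141 to 165 over the 6 arrays, with detection p from 0.305 to 0.729. The probes for Chrdl1 read 129 to 157 and 138 to 167, and neither was above background on any array (lowest detection p 0.733 and 0.261). The dim Twsg1 probe read 134 to 157 where its partner was bright on every array, so the dim probe says nothing about Twsg1. No fold is given for these probes, and a lack of signal does not show that Nog or Chrdl1 is not transcribed in the trachea.

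The 6 measurable antagonists did not vary alike from pool to pool. In the control group, pool 1 had the lowest normalized level of all 6 genes. For Twsg1 and Fstl1 it was lowest by little, as their control values ranged over only 0.03 and 0.08 on the log2 scale. The share of all tested genes lowest in any 1 pool is not given here. In the mutant group, pool 3 had the lowest level of 4 genes, Fst, Chrd, Twsg1 and Fstl1, while the mutant values of Grem1, all at background, have no order. Bmper went the other way there: it read 7.28, 6.81 and 7.81 in mutant pools 1, 2 and 3, highest in pool 3. Fst read 7.91, 7.58 and 7.39 in the same pools. The spread of Bmper was wider than that of any of these 4 genes in the mutant pools, whose ranges were 0.16 to 0.51 on the log2 scale. These are descriptions of 3 pools a group, which no test here separates from spread between pools.

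Markers of the mesenchymal cells that could carry these transcripts moved as well. The chondrocyte list, 14 of 19 genes measured, had 9 members called lower and none higher, against 3.36% and 2.16% of all tested genes. Its summed signal was 13405 to 16134 in control pools against 2010 to 2235 in mutant pools. Its defining marker Acan was detected on 1 of 3 mutant arrays, as were Matn1, Comp and Cytl1. Hapln1 and Ucma were detected on none, so they entered the test through the control pools alone and their calls add nothing to the count. Acan, Matn1, Comp and Cytl1 also cleared the detection filter on their control values, and their mutant means lay near the lowest detected signal. The fitted sizes of their changes are therefore no measured sizes. Col9a2, Matn4, Sox5 and Col11a2 were detected on all 3 mutant arrays. Of these, Sox5 and Col11a2 were not called (limma adjusted p = 0.450 and 0.668). Summed chondrocyte signal was lowest in control pool 1 among the controls and highest in mutant pool 3 among the mutants (2235, against 2088 and 2010), the same pools in which Bmper was lowest and highest. Fibroblast and perichondrial markers (4 of 10 lower) summed to 45131 to 49508 in control pools and 35866 to 41918 in mutant pools, and smooth muscle markers (2 of 6 lower) to 24567 to 33642 and 17285 to 25612. Among the mutant pools both sums were lowest in pool 3, where Fst, Chrd, Twsg1 and Fstl1 were lowest. Among the controls every measurable antagonist was lowest in pool 1, though by little for Twsg1 and Fstl1. The smooth muscle sum was also lowest in pool 1 (24567). The fibroblast sum was lowest in pool 3 (45131, against 49244 in pool 1), although the mean log2 level of that list was lowest in pool 1. Epithelial markers (8 of 9 measured, none called by limma, 1 lower and 5 higher at unadjusted p below 0.05) summed to 47172 to 47586 and 50306 to 51816. No endothelial (4 of 5 measured), leukocyte (4 of 5) or neuronal (1 of 4) marker passed limma's test, with 1 gene of each list at unadjusted p below 0.05. Their sums did not overlap between control and mutant pools. They were 2403 to 3004 against 1933 to 2343 for endothelium and 2740 to 2994 against 3553 to 4299 for leukocytes. The single neuronal gene was at 116 to 159 against 180 to 226. Of all tested genes 16.1% were separated downwards and 15.3% upwards on the normalized scale. Mean log2 levels of the endothelial list overlapped between the groups. Of the leukocyte markers Cd14 changed by 0.53 and Cd68 by 0.12, while Csf1r (-0.06) and Adgre1 (-0.04) went the other way. Lung markers summed to 1897 to 2220 and 3331 to 5790, and 2 of 3, Sftpb and Abca3, were called higher. The part of cell composition in the changes of the antagonists was not tested.

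**Figure D3:**
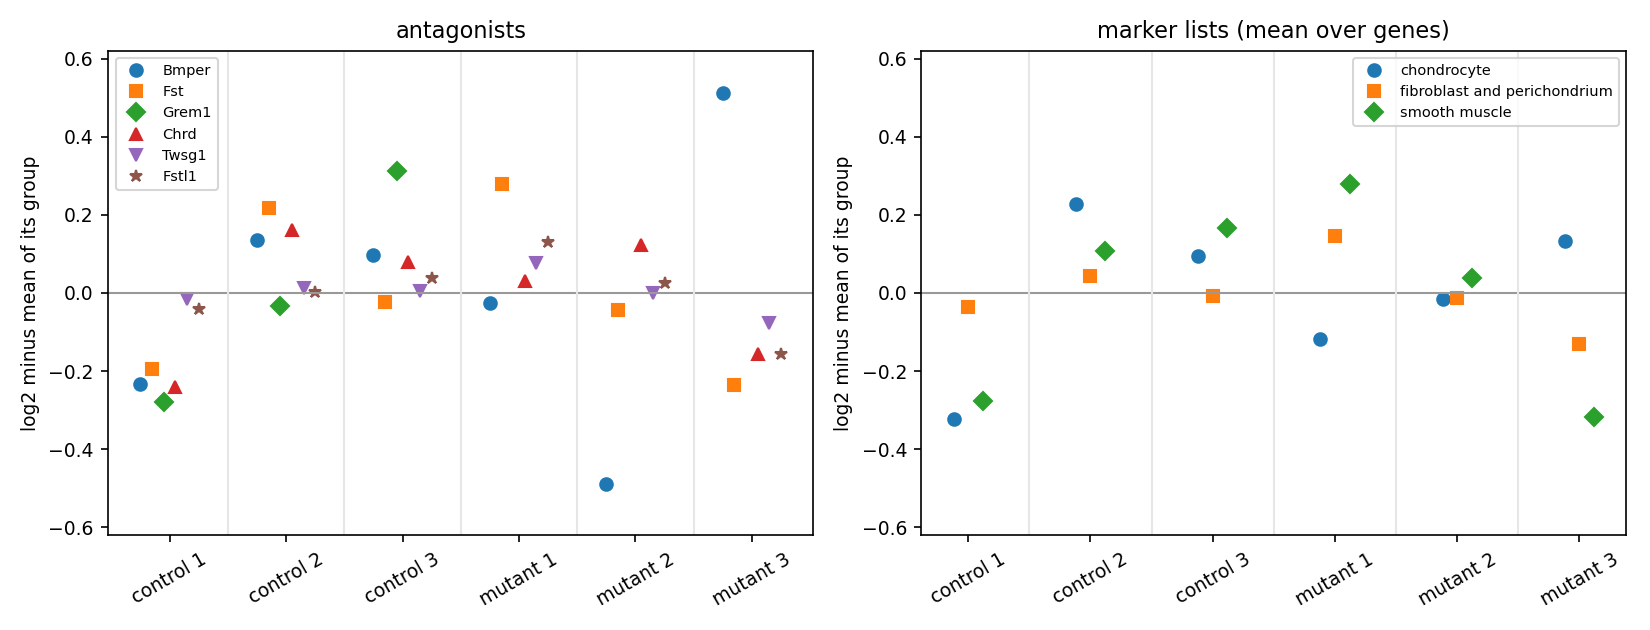
Left, normalized log2 level of each measurable antagonist minus the mean of its own group, by pool; right, the same for the mean of 3 marker lists. In mutant pool 3 Bmper lies above its group mean and Fst, Chrd, Twsg1 and Fstl1 below theirs, Grem1 is drawn for the control pools only, and the fibroblast and smooth muscle lists lie below while the chondrocyte list lies above.

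Across the 6 arrays, the genes whose normalized values followed Bmper most closely were Cenpm, a centromere protein gene (Pearson r = 0.998), Mcm5, a subunit of the replicative helicase (r = 0.995), and Mcmbp, which binds that helicase (r = 0.994). Their log2 changes were far smaller than that of Bmper, -0.49 for Cenpm (SE 0.10, adjusted p = 0.0391), -0.47 for Mcm5 (SE 0.10, adjusted p = 0.0412) and -0.35 for Mcmbp (SE 0.09, adjusted p = 0.0671). These coefficients rest on 6 points in 2 groups. Of 10547 genes compared, 439 had r above 0.9, so such a value was not particular to the genes named. The other antagonists had r with Bmper of 0.75 (Fstl1) to 0.89 (Fst).

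The rest of the pathway was read from lists of ligands, receptors, signal transducers, targets and other extracellular modulators. Of 86 listed genes 51 were tested, of which 8 were called lower and 1 higher, with a median log2 change of -0.15. Over all 10831 tested genes 3.36% were called lower and 2.16% higher, with a median of 0.01. The counts of each list below stand beside these shares, and the lists are short. Among 9 ligands none was called lower by limma (5 at unadjusted p below 0.05) and 1 rose, Inhbb, the activin beta B subunit, from 8.05 ± 0.00136 to 8.93 ± 0.18 (log2 change 0.88, SE 0.11, adjusted p = 0.0130). It missed the threshold in the fit without control pool 3 (adjusted p = 0.0511). The small control SD of Inhbb is that of quantile-normalized values, which were the same in control pools 1 and 3. Raw signal was 370, 365 and 404 in control pools 1, 2 and 3. Inhbb rose where Fst, the gene of an activin binder, fell. Inhba, the activin beta A subunit, went the other way from Inhbb without being called (-0.58, adjusted p = 0.183, groups overlapping). Activin activity was not measured, and a link between these genes was not tested. The ligand genes closest to the threshold were Gdf10 (-0.73, adjusted p = 0.0583), Gdf5 (-0.67, adjusted p = 0.0613, detected on 1 of 3 mutant arrays) and Bmp7 (-0.66, adjusted p = 0.0690). Bmp7, whose product noggin and chordin can bind, passed without mutant pool 1 (-0.81, adjusted p = 0.0455).

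Of 11 receptor genes 1 fell, Eng, an endothelial co-receptor (-0.68, adjusted p = 0.0334). The summed endothelial markers were also lower in every mutant pool. Their mean log2 level was not: relative to all arrays it was -0.05 in control pool 3 and 0.01 in mutant pool 1. The part of these markers in the call of Eng was not tested. The next were Acvrl1 (-0.45, adjusted p = 0.0885), Neo1 (-0.38, adjusted p = 0.0948) and Acvr1 (-0.28, adjusted p = 0.157). Of 10 signal transducers none was called by limma (1 at unadjusted p below 0.05). Smad2, which carries activin signals, came nearest (-0.41, adjusted p = 0.0503), before Skil (-0.21, adjusted p = 0.240) and the BMP-activated Smad5 (-0.20, adjusted p = 0.283). Of 8 target genes 3 fell, the BMP targets Id3 (-0.77, adjusted p = 0.0117) and Id1 (-0.78, adjusted p = 0.0241), and Gata2 (-0.88, adjusted p = 0.0425). Msx1 (1.14, adjusted p = 0.118), Hey1 (0.18, adjusted p = 0.406) and Id2 (-0.27, adjusted p = 0.475) did not pass, and Msx1 passed without control pool 1 (1.56, adjusted p = 0.0243). Averaging the probes of a gene instead of taking the brightest gave -0.07 for Smad5 and -0.32 for Id2, neither called.

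Of 13 other extracellular modulators 4 fell. They were the latent TGF-beta binding protein gene Ltbp1 (-0.62, adjusted p = 0.0312), the secreted serine protease genes Htra3 (-0.68, adjusted p = 0.0386) and Htra1 (-0.98, adjusted p = 0.0494), and the microfibril gene Fbn1 (-0.60, adjusted p = 0.0468). Others did not pass: Fbn2 (-1.04, adjusted p = 0.0631), the chordin-cleaving protease gene Bmp1 (-0.39, adjusted p = 0.0735) and Kcp (-0.31, adjusted p = 0.209). Fbn2 passed without control pool 1 (-1.31, adjusted p = 0.0226). With the probes of a gene averaged instead of the brightest taken, Ltbp1 lost its call (-0.53, adjusted p = 0.0897) and Bmp1 was -0.31 (adjusted p = 0.141). Htra3, Htra1 and Fbn1 kept their calls in that fit (adjusted p = 0.0170, 0.0469 and 0.0458). Id3 kept its call without each pool in turn (adjusted p up to 0.0495). The calls of Fbn1 and Htra3 were lost without any 1 pool. That of Eng was lost without any pool but control pool 1, those of Gata2 and Htra1 without any pool but mutant pool 1, and those of Id1 and Ltbp1 without control pool 2 or 3 or mutant pool 2 or 3 (adjusted p 0.0511 to 0.138 over these fits).

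**Figure D4:**
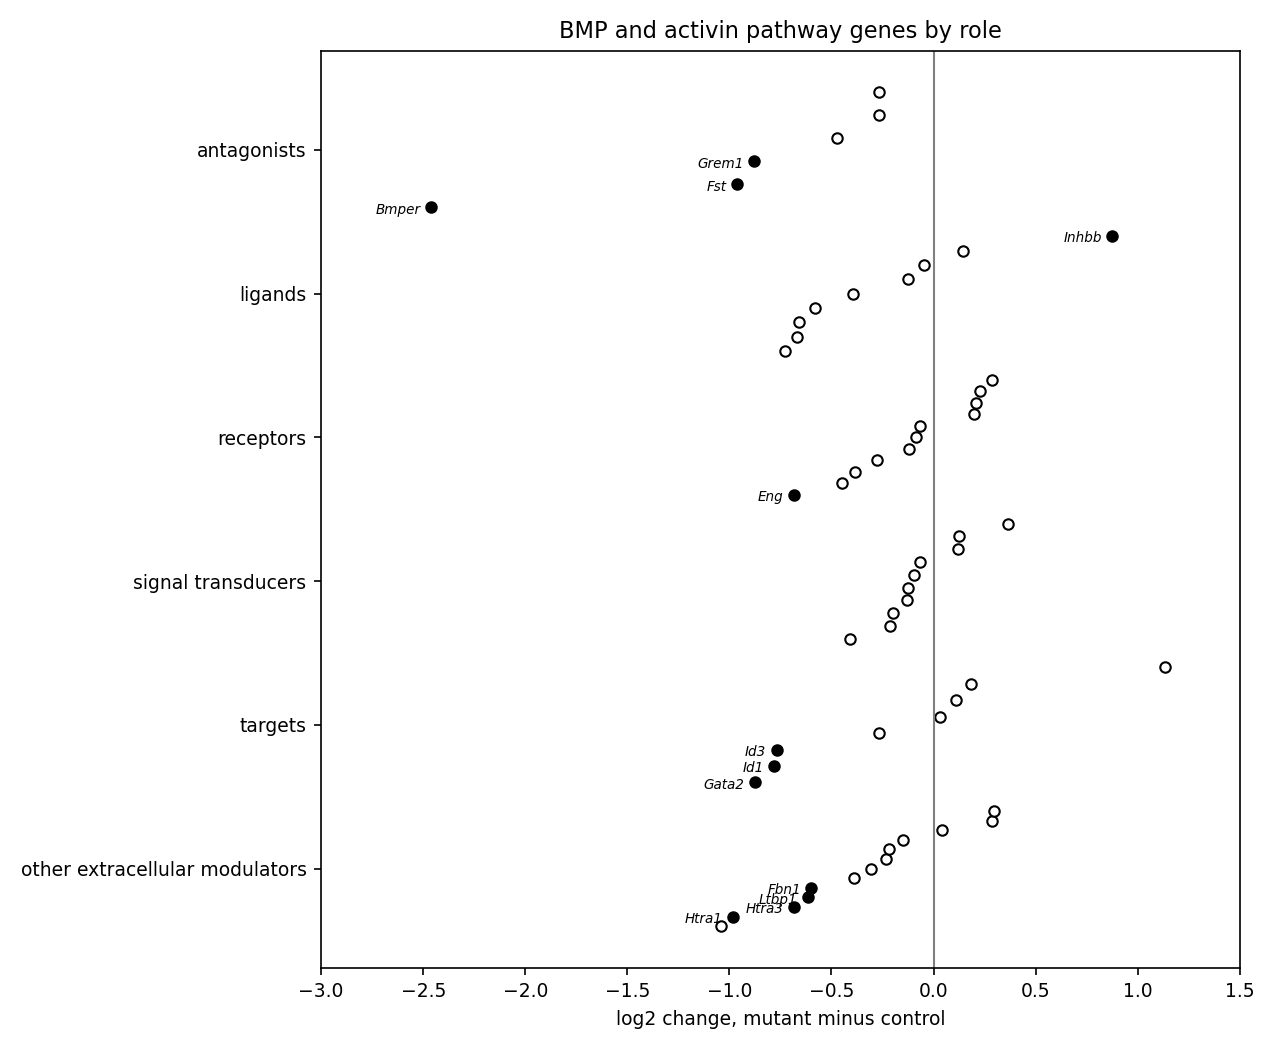
Log2 change (mutant minus control) of every tested gene of the antagonist group and of the 5 pathway lists, 1 point per gene, filled and named where the adjusted p over all genes was below 0.05. Bmper lies at -2.46, beyond all the pathway genes shown, and Inhbb at 0.88 is the single filled point to the right of 0.

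**Figure D5:**
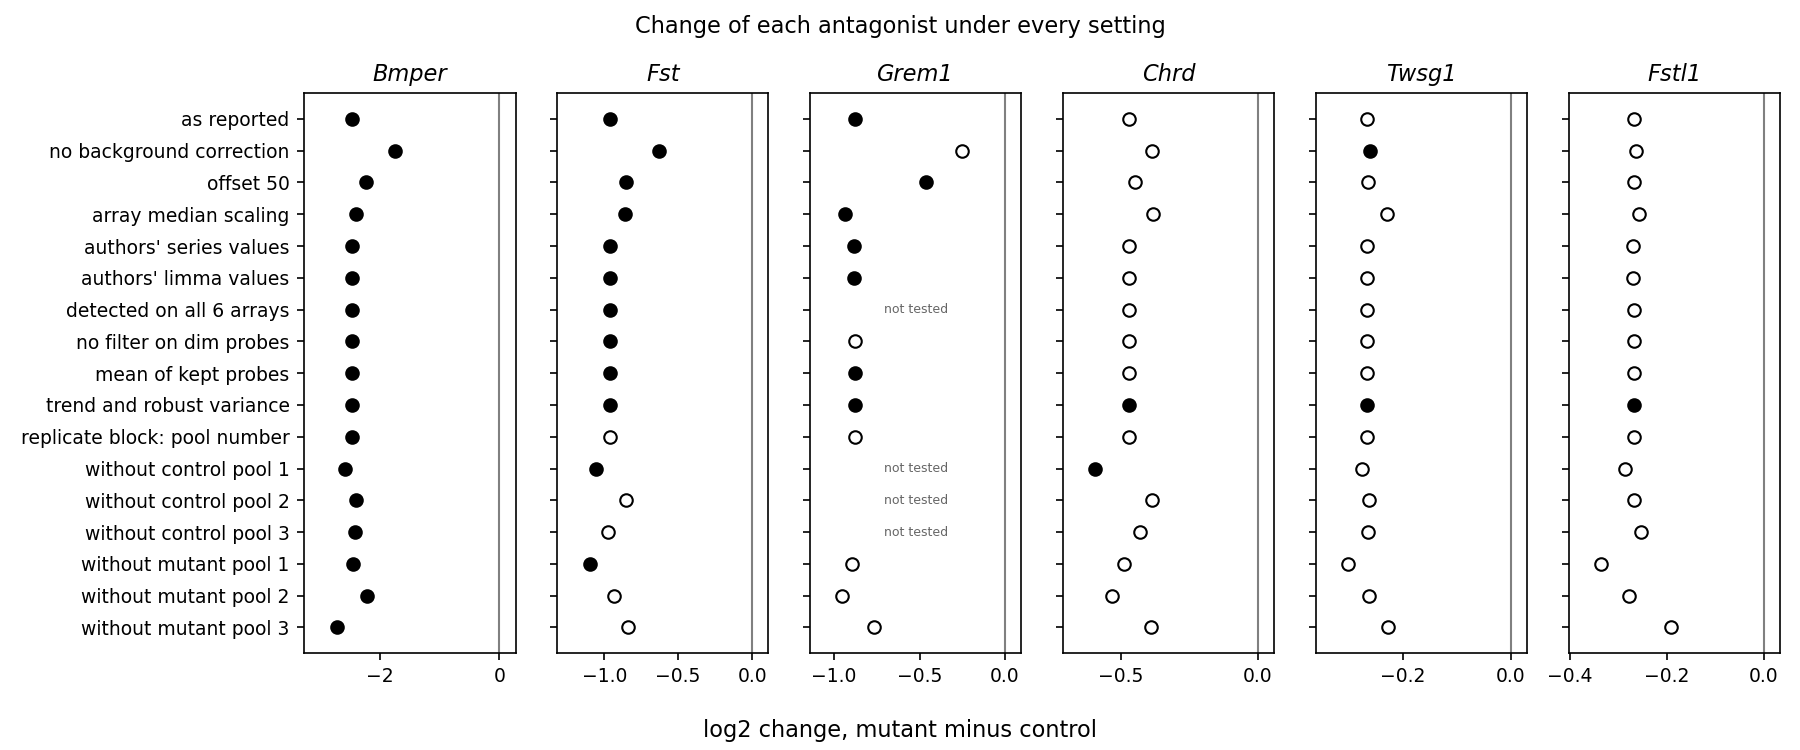
Log2 change of each measurable antagonist under the reported setting and 16 alternatives, filled where called. All points lie below 0; Bmper is filled throughout, Fst and Grem1 are open in 5 and 6 fits, and Grem1 was not tested where its probe failed the detection filter.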

How the data were processed

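RNA of 6 pools was hybridised to Illumina mouse bead arrays as biotin-labelled cRNA, per the labels' protocols. The table the authors deposited without normalization gives for 25697 probes a bead intensity with its error, a bead number and a detection p-value, per the file headers. The deposited series values and limma values are on the log2 scale, and the submitters' processing notes name R 3.2.3 and limma 3.26.9. The authors' limma table also holds a moderated t and a log odds score, which were not used here. Its log2 values and p-values cover 15335 probes.

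Intensities were background-corrected (normexp, background inferred from the detection p-values, offset 16) and quantile-normalized with neqc's steps in limma 3.58.1 under R 4.3.3, and came within 0.0206 of the deposited series values. A probe was kept if 3 or more of the 6 arrays gave it a detection p below 0.05 (14711 probes), symbols were updated through RefSeq (GRCm38.p6), and the brightest kept probe stood for a gene. Mutant minus control was tested with limma over all 10831 genes with no covariate, two-sided. Where a group had no detected value, its bound per array was the higher of the lowest detected value and the probe's own. The test was tried on simulated data. Members and lists were chosen with earlier results of these data known. The named genes were all members, and per list every gene that passed and up to 3 with the smallest p that did not. For Bmper the 3 tested genes of highest Pearson r were named, predicted genes left out. Inhba, airway genes checking the tissue, leukocyte markers and chondrocyte markers picked by detection on mutant arrays were named after their values were seen. Alternatives covered background, offset, normalization, source, filter, probe summary, variance model, pool number as a block, and each pool left out. Arrays shared 1 slide with control pools first, so position and group cannot be told apart.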

Additional observations from a re-analysis of the deposited data

How the results depend on the processing

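No member's change reversed under any of 16 alternatives: of 92 values for the 6 members, 76 kept their side of the threshold, 11 lost a call and 5 gained one, and of 383 for the pathway genes named, 305 kept it. Bmper was called throughout (log2 change -2.72 to -1.74), Fst ranged from -1.10 to -0.63, and Grem1 from -0.95 to -0.25. Of all 10831 tested genes 598 changed, against 949 without background correction and 1086 with trend and robust variance. Without a filter on dim probes 391 of 17850 changed. With trend and robust variance all 6 members were called in place of 3, beside the larger count over all genes. Both member counts include Grem1, whose call adds nothing to them. With array median scaling 639 changed, 54.8% of them higher against 39.1% with quantile normalization, and the median of all genes was 0.06 against 0.01. Leaving out 1 pool gave 84 to 564 genes and 1 to 3 members called. Pool number does not pair the groups, since pools were mixed at random. The correlation of same-numbered pools' deviations from their group means was -0.01, -0.09 and -0.10, and no pool correlated best with its own number. With the replicate block by pool number, 123 genes and 1 member (Bmper, adjusted p = 0.0384) were called. Grem1 could not be tested with the filter on all 6 arrays or without any 1 control pool, and Gdf5 could not with the former. Signal over background limits Grem1, Nog and Chrdl1.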
